A study of Mus musculus with 3 samples.

Results

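The 1398 copies of the intracisternal A particle (IAP) long terminal repeat (LTR) on the autosomes were examined together with the DNA on both sides of them. They were found in GRCm38, the assembly that mm10 names, as matches that were 90% identical or more and covered 90% or more of the IAPLTR1_MM amplicon, the 263-bp stretch that the study amplified for its bisulfite-PCR assay. They make up 1398 of the 3723 autosomal matches to the 4 LTR amplicons that were compared. IAPs are endogenous retroviruses that still move in the mouse genome. The LTR stands at both ends of the provirus, carries its promoter and is densely set with CpG sites, and recombination between both LTRs can leave a lone LTR behind. In prospermatogonia most of the genome gains methylation *de novo* with the help of DNMT3L, a cofactor of the DNA methyltransferases, while piRNAs, whose production needs the nuclease PLD6, guide methylation to some retrotransposons.

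Methylation was measured by whole-genome bisulfite shotgun sequencing of spermatogonia that were sorted with an anti-EpCAM antibody from C57BL6/J testes on postnatal day 7. The groups were WT, *Pld6* KO and Dnmt3L KO, each with 1 library, so no spread between animals could be estimated, and what separates the genotypes cannot be told apart from what separates the libraries. The study's WT category took in mice that were heterozygous for either mutation, and which mouse gave the WT library is not given in the sources used here. A methylation level is the fraction of calls at a region's CpG sites that were methylated, and values in parentheses after a level are its 95% Wilson interval, or for a difference the 95% Newcombe interval. Both cover counting error only and are too narrow where several calls come from the same read. Over all autosomal CpG sites of the deposited files, the level was 0.704 (WT), 0.724 (*Pld6* KO) and 0.303 (Dnmt3L KO), at 2.10, 3.08 and 0.926 calls per site.

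The sequence searched for carries 11 CpG sites, shown in capitals because they are the sites measured inside the copies.
IAPLTR1_MM amplicon: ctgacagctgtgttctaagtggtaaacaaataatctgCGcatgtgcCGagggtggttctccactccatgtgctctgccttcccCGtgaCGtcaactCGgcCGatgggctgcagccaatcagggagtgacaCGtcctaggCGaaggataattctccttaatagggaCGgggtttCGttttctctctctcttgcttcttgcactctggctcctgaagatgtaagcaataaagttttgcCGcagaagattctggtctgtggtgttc

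The copies fell into 2 classes by their surroundings. A copy was called paired where another match on the same strand started 2 to 9 kb away, as the LTRs of a provirus do, and single otherwise. There were 1167 paired copies, which formed 581 insertions, and 231 single copies, which gave 812 insertions in all. Of the paired copies, 579 had their partner 6.5 to 7 kb away. The median identity to the amplicon was 96.9% for paired and 92.0% for single copies, and all copies lay between 90.04% and 99.62%.

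The amplicon does not hold the whole LTR. Among the 581 upstream ends of paired insertions, the commonest base was shared by 97.8% of them at 31 to 40 bp outside the match, and by 33.9% at 41 to 50 bp. The LTR therefore starts 40 bp before the match in these copies, and the CpG sites of its rim fall into the first 50 bp outside. On integration a short stretch of the target DNA is duplicated, so an insertion that has stayed whole, or a lone LTR left by recombination, is flanked by the same 6 bp on both sides. Such a 6-bp repeat was found at 560 of the 581 paired insertions and at 141 of the 231 single copies. The edges of 2 paired and 3 single insertions are printed to show it, with the repeat in capitals. In each upstream edge the LTR begins with tg right after the repeat, and in each downstream edge the LTR ends right before it.
Paired, intron of *Zfp277*, upstream edge, chr12:40402072-40402131, plus strand: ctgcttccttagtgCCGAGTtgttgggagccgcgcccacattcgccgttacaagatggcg
Paired, intron of *Zfp277*, downstream edge, chr12:40409161-40409221, plus strand: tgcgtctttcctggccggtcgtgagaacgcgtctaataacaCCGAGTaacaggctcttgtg
Paired, intron of *Ralyl*, upstream edge, chr3:13889851-13889910, minus strand: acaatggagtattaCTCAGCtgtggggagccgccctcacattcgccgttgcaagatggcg
Paired, intron of *Ralyl*, downstream edge, chr3:13883863-13883918, minus strand: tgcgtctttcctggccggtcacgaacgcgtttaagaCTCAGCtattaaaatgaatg
Single, 4960 bp from *Ces2a*, upstream edge, chr8:104746846-104746905, minus strand: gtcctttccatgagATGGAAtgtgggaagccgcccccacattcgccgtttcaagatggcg
Single, 4960 bp from *Ces2a*, downstream edge, chr8:104746537-104746593, minus strand: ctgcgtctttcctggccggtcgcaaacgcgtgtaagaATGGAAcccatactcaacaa
Single, intron of *Asic2*, upstream edge, chr11:81015662-81015721, plus strand: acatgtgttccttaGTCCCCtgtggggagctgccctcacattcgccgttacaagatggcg
Single, intron of *Asic2*, downstream edge, chr11:81015985-81016035, plus strand: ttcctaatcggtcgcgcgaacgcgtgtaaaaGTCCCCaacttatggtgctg
Single, intron of *Sec11a*, upstream edge, chr7:80935318-80935377, plus strand: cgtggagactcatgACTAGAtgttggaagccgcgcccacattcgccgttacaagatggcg
Single, intron of *Sec11a*, downstream edge, chr7:80935656-80935708, plus strand: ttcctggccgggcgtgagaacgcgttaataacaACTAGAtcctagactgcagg

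Inside the copies, methylation was high in WT, lower in *Pld6* KO and low in Dnmt3L KO. The level over all copies was 0.850 (0.831 to 0.867) in WT, 0.675 (0.659 to 0.691) in *Pld6* KO and 0.248 (0.219 to 0.279) in Dnmt3L KO. It was lower than in WT by 0.175 (0.150 to 0.198) in *Pld6* KO and by 0.602 (0.566 to 0.635) in Dnmt3L KO. These values rest on few calls. Only uniquely mapped reads were kept, and any call was present in 470 of the 1398 copies, and of the 15349 CpG sites inside the copies 5.56% (WT), 8.65% (*Pld6* KO) and 3.71% (Dnmt3L KO) were covered. The calls came to 1529, 3191 and 803. Coverage differed between the classes, with 3.17% of the sites of paired and 18.7% of the sites of single copies covered in WT.

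The classes also differed in level. Inside single copies the level was 0.906 (WT), 0.645 (*Pld6* KO) and 0.154 (Dnmt3L KO). Inside paired copies it was 0.784 (WT), 0.703 (*Pld6* KO) and 0.380 (Dnmt3L KO). In *Pld6* KO the level was thus lower than in WT by 0.261 (0.229 to 0.291) at single copies and by 0.0812 (0.0428 to 0.118) at paired copies.

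More calls were available at the outer rim, the first 50 bp outside a match on the side away from the partner. There, the paired copies were nearly as methylated in *Pld6* KO as in WT and kept much of their methylation in Dnmt3L KO, with levels of 0.903 (WT, 4673 calls), 0.885 (*Pld6* KO, 8638 calls) and 0.641 (Dnmt3L KO, 1815 calls). The single copies started from a WT level as high but were lower in both mutants, with 0.921 (WT, 1932 calls), 0.661 (*Pld6* KO, 3705 calls) and 0.194 (Dnmt3L KO, 1103 calls). The level at paired copies exceeded that at single copies by 0.224 (0.207 to 0.240) in *Pld6* KO and by 0.447 (0.414 to 0.478) in Dnmt3L KO, whereas the same difference was -0.0180 (-0.0322 to -0.0027) in WT. A level of 0.641 is also above the autosomal level of 0.303 in the Dnmt3L KO library.

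The single copies were themselves mixed. At the rim of the 141 with the 6-bp repeat, the level was 0.932 (WT), 0.616 (*Pld6* KO) and 0.105 (Dnmt3L KO). At the 90 without the repeat it was 0.896 (WT), 0.767 (*Pld6* KO) and 0.385 (Dnmt3L KO). A weaker match on the same strand, too short or too diverged to count as a copy, lay 2 to 9 kb from 32 of the single copies, and 28 of these 32 were without the repeat. Over the match and its rim, these 32 copies had a level of 0.840 (WT), 0.810 (*Pld6* KO) and 0.404 (Dnmt3L KO), so that the interval of the difference between WT and *Pld6* KO (-0.0218 to 0.0771) took in 0. The other 199 single copies, with no other match at that distance, had a level of 0.926 (WT), 0.632 (*Pld6* KO) and 0.157 (Dnmt3L KO). The level of the 32 exceeded that of the 199 by 0.178 (0.145 to 0.208) in *Pld6* KO and by 0.246 (0.170 to 0.327) in Dnmt3L KO. The repeat, the rim and the weaker matches were looked at after the levels of the copies had been seen.

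**Figure D1:**
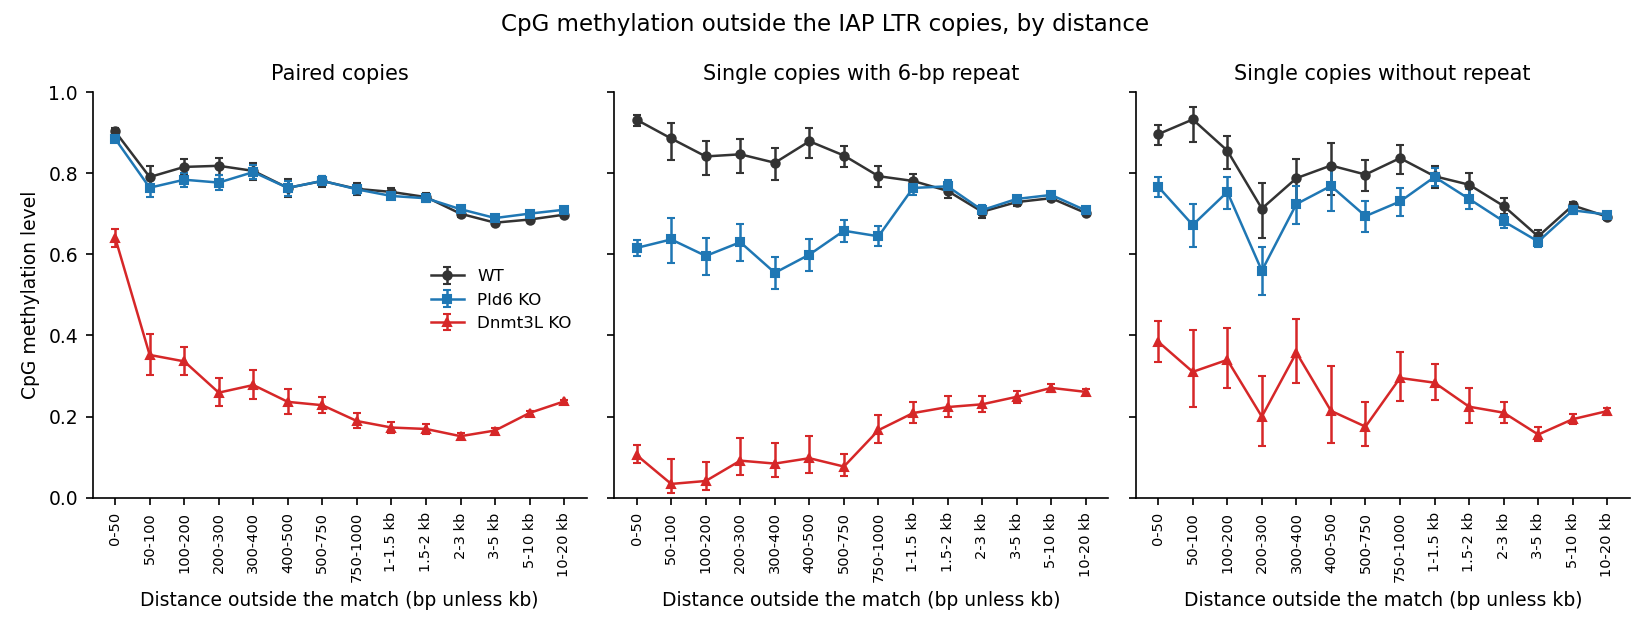
CpG methylation level (y axis, 0 to 1) by distance outside the match (x axis, bp, then kb), on the sides that face away from a partner copy, for paired copies, single copies with the 6-bp repeat and single copies without it. Points are pooled levels of the 3 libraries and bars are 95% Wilson intervals. At paired copies the *Pld6* KO points lie near the WT points, at most 0.0413 below them (at 200 to 300 bp), and up to 1 kb from single copies with the repeat they lie below them by 0.148 or more.

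Pooled by class, the level of the DNA beside the copies followed that of the copies. Individual insertions could go apart from the DNA beside them, as at the *Spag16* copy described below. Between 50 and 500 bp from single copies, outside the LTR, the level was 0.839 (WT), 0.639 (*Pld6* KO) and 0.170 (Dnmt3L KO). Next to paired copies it was 0.799 (WT), 0.780 (*Pld6* KO) and 0.286 (Dnmt3L KO). The *Pld6* KO level was lower than the WT level by 0.2 (0.178 to 0.221) beside single copies and by 0.0194 (0.0065 to 0.0322) beside paired copies. The level of this DNA in the *Pld6* KO library differed between the classes by 0.140 (0.123 to 0.158). Both sides of every single copy were counted, also at the 32 with a weaker match 2 to 9 kb away. DNA between those copies and their weaker matches is therefore included. The 90 single copies without the repeat gave 1232 of the 1971 CpG sites at 50 to 500 bp. The *Pld6* KO level was below that of WT by 0.255 (0.227 to 0.282) beside single copies with the repeat. Beside those without it, the difference was 0.118 (0.0845 to 0.151). Taken singly, 22 of the 67 outer flanks of single copies with 10 calls in both libraries (32.8%) were at least 0.3 below their WT level in *Pld6* KO, and 9 of 208 of paired copies (4.33%), against 2.54% of autosomal windows of this length. In Dnmt3L KO these were 22 of 24 flanks of single (91.7%) and 39 of 48 of paired copies (81.2%), against 60.4%. The windows were taken at any WT level, whereas the median WT level of these flanks was 0.858 (single) and 0.917 (paired). No share was counted for flank-length windows of high WT level.

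In *Pld6* KO the lower level beside single copies ended at about 1 kb. From 500 to 1000 bp the level was 0.816 in WT and 0.670 in *Pld6* KO, which is a difference of 0.146 (0.125 to 0.167). From 1000 to 1500 bp it was 0.784 in WT and 0.773 in *Pld6* KO, and the interval of the difference (-0.0082 to 0.0318) took in 0. At 2 to 5 kb both libraries were at about the level found far from the copies, with 0.703 in WT and 0.701 in *Pld6* KO. The upstream and downstream sides were alike, with a difference of 0.199 (0.166 to 0.231) upstream and 0.201 (0.173 to 0.228) downstream at 50 to 500 bp.

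In Dnmt3L KO the level changed with distance from the copies. From paired copies the level fell outwards, from 0.641 at the rim to 0.352 at 50 to 100 bp, 0.336 at 100 to 200 bp, 0.236 at 400 to 500 bp, 0.189 at 750 to 1000 bp and 0.152 at 2 to 3 kb, and it was 0.238 at 10 to 20 kb. From single copies with the repeat the level went from 0.105 at the rim to 0.034 at 50 to 100 bp, stayed under the rim's level up to 750 bp, with 0.077 at 500 to 750 bp, and was higher beyond, with 0.167 at 750 to 1000 bp and 0.209 at 1000 to 1500 bp, and 0.261 at 10 to 20 kb. From single copies without the repeat the level was also highest at the rim, but it did not fall steadily. It went from 0.385 at the rim to 0.302 at 50 to 500 bp and 0.238 at 500 to 1000 bp. It was 0.256 at 1000 to 2000 bp and 0.174 at 2 to 5 kb. In narrower steps it went up and down, with 0.175 at 500 to 750 bp and 0.295 at 750 to 1000 bp. The methylated DNA next to paired copies thus stood above, and the DNA next to single copies with the repeat below, what the same library showed farther out. In WT the level fell outwards from both classes, from 0.903 to 0.698 at paired copies and from 0.932 to 0.702 at single copies with the repeat.

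When all copies and both sides were pooled as first defined, the level at 0 to 0.5 kb was 0.847 (WT), 0.774 (*Pld6* KO) and 0.350 (Dnmt3L KO). At 0.5 to 2 kb it was 0.766 (WT), 0.745 (*Pld6* KO) and 0.225 (Dnmt3L KO). At 2 to 5 kb it was 0.689 (WT), 0.697 (*Pld6* KO) and 0.177 (Dnmt3L KO), and at 5 to 20 kb 0.698 (WT), 0.709 (*Pld6* KO) and 0.232 (Dnmt3L KO). The first of these spans mixes the rim of the LTR with the DNA beside it and the classes with each other, and the drop from WT to *Pld6* KO there, 0.0736 (0.0664 to 0.0807), lies between those of the classes.

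**Figure D2:**
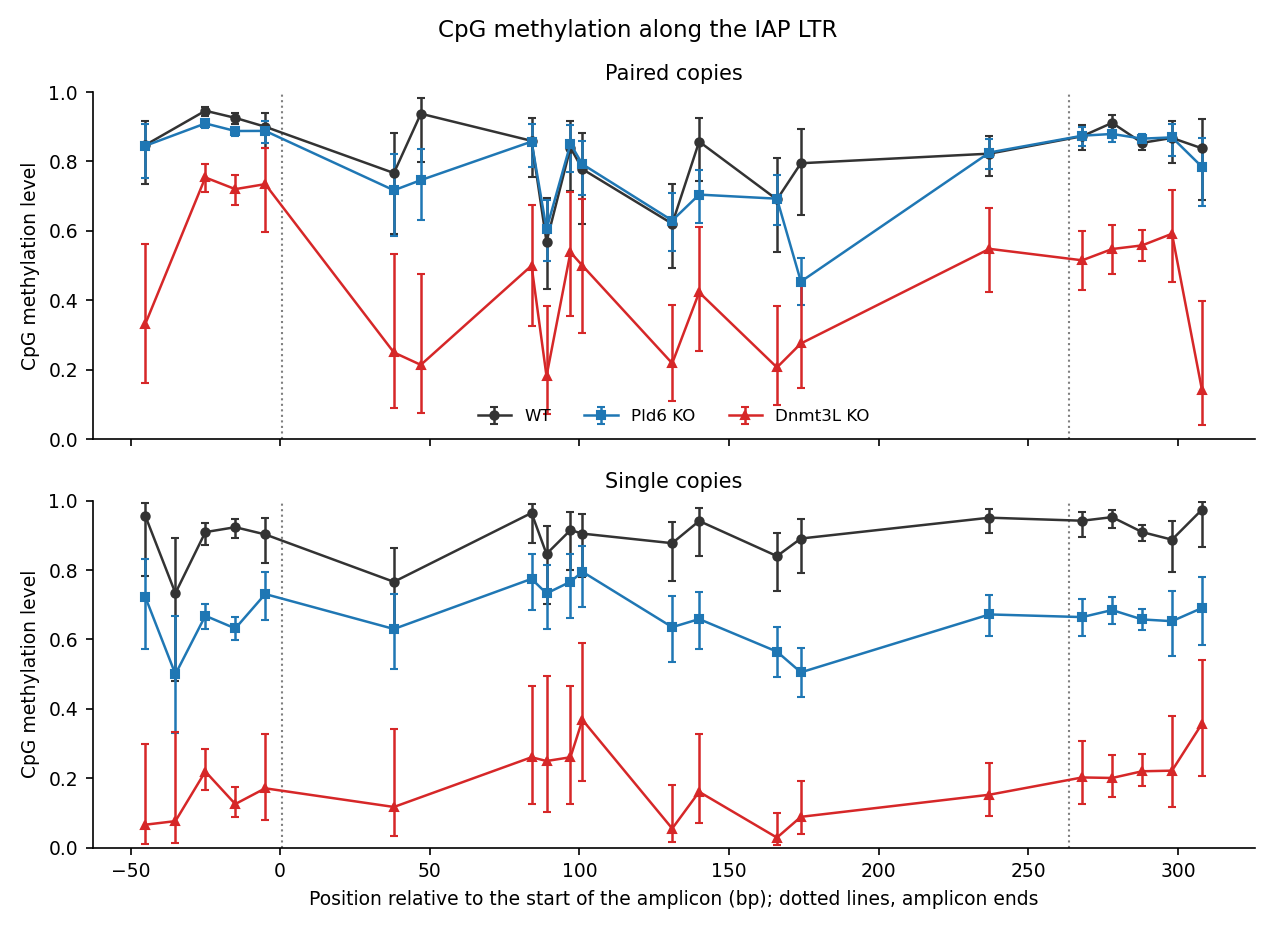
CpG methylation level (y axis, 0 to 1) along the LTR (x axis, bp from the start of the amplicon), for paired and single copies. Points between the dotted lines are the 11 CpG sites of the amplicon and points outside them are 10-bp steps of the outer rim. Bars are 95% Wilson intervals, and points under 10 calls are left out.

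The outer rims of a pair belong to different copies, the upstream one to the 5′ copy and the downstream one to the 3′ copy. In Dnmt3L KO the level of the upstream rim of paired insertions was 0.730 and that of their downstream rim 0.545, a difference of 0.185 (0.141 to 0.228). In *Pld6* KO these levels were 0.897 and 0.869. In WT they were 0.932 and 0.870, a difference of 0.0619 (0.0448 to 0.0794) in the same direction. The upstream and downstream rims are also different parts of the LTR. Inside the match, the Dnmt3L KO level of the 5′ copies exceeded that of the 3′ copies by 0.0979. The interval of that difference (-0.0078 to 0.202) took in 0. The Dnmt3L KO level was 0.754 (447 calls) at 20 to 30 bp upstream of the match, still inside the LTR, and 0.333 (18 calls) at 40 to 50 bp, just outside it. At single copies both rims belong to the same LTR, and the Dnmt3L KO level was 0.161 at the upstream and 0.219 at the downstream rim.

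Inside the match, the *Pld6* KO level of single copies was below that of WT at the 11 CpG positions, but the interval of the difference took in 0 at positions 38, 47, 89 and 101, and position 47 had 1 call in WT and 5 in *Pld6* KO. The largest of these differences with over 50 WT calls was at position 174, all counted from 1 at the start of the amplicon, where the level was 0.891 (WT, 64 calls), 0.505 (*Pld6* KO, 188 calls) and 0.089 (Dnmt3L KO, 56 calls). The same position stood out in paired copies, with 0.795 (39 calls) in WT and 0.454 (207 calls) in *Pld6* KO. The excess of *Pld6* KO calls was larger there than at position 237, and whether both libraries sampled the same copies was not tested. At position 237, near the 3′ end, the paired copies had 0.822 (WT, 169 calls), 0.826 (*Pld6* KO, 287 calls) and 0.548 (Dnmt3L KO, 62 calls). The single copies had 0.951 (162 calls), 0.672 (247 calls) and 0.153 (85 calls) there.

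Between the paired copies, where the body of the provirus lies, the level at 0 to 500 bp from the match was 0.814 (WT), 0.755 (*Pld6* KO) and 0.413 (Dnmt3L KO). At 500 to 2000 bp it was 0.782 (WT), 0.737 (*Pld6* KO) and 0.455 (Dnmt3L KO). Within 500 bp the outer side of paired copies, rim included, was about as methylated in Dnmt3L KO, with 0.419, and at 500 to 750 bp the body was at 0.258 and the outer DNA at 0.228. Farther out the body was higher, with 0.534 against 0.189 at 750 to 1000 bp and 0.444 against 0.173 at 1000 to 1500 bp.

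**Figure D3:**
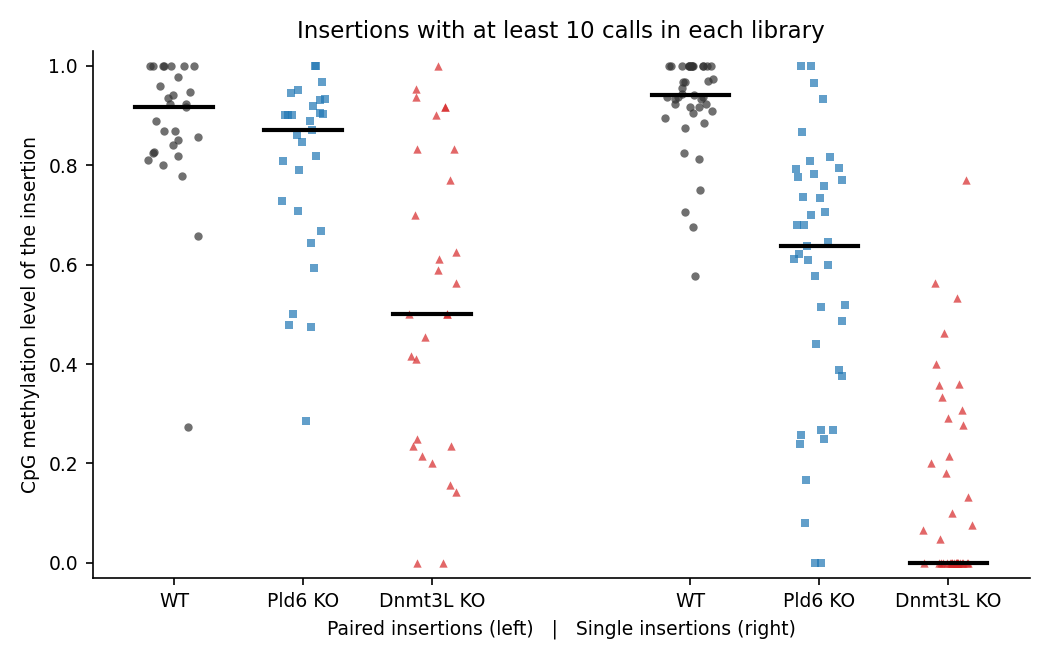
CpG methylation level of individual insertions (y axis, 0 to 1), over the match and the outer rim, for the 29 paired and 41 single insertions with at least 10 calls in each of the 3 libraries. Each point is an insertion, with both copies pooled at paired ones, and the bar is the median. In Dnmt3L KO the paired insertions spread from 0 to 1, and 22 of the 41 single ones are at 0.

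Individual insertions were followed over the match and the rim where a library had at least 10 calls. At a paired insertion the matches and outer rims of both copies were pooled, so it is longer than the windows used below. An insertion was again counted as lower where its level was at least 0.3 below that in WT, the size that the study used for a severe decrease. In *Pld6* KO, 36 of 105 single insertions (34.3%) and 5 of 182 paired insertions (2.75%) were lower, against 2.66% of all autosomal windows as long as a match with both rims. In Dnmt3L KO, 39 of 42 single (92.9%) and 21 of 35 paired insertions (60%) were lower, against 57.4% of the windows. Among windows with at least 8 CpG sites and a WT level of at least 0.7, which are more like the LTR, the shares were 4.67% (*Pld6* KO) and 81.8% (Dnmt3L KO). The share of paired insertions was thus near that of the windows in *Pld6* KO, though windows as long as a paired insertion were not counted. The share of single insertions was above that of the windows. The median level in Dnmt3L KO was 0.5 at paired and 0 at single insertions. A level of at least 0.5 was kept in Dnmt3L KO at 19 of 35 paired (54.3%) and 3 of 42 single insertions (7.14%), against 24% of all and 35.3% of the CpG-rich windows. These counts rest on few calls, and where 20 calls were asked for in both libraries, 2 of 6 paired (33.3%) and 0 of 10 single insertions kept this level, the median at paired insertions was 0.33, and 5 of 6 paired and 9 of 10 single insertions were lower.

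Calls are not reads, and the most calls at any CpG site of an insertion give the smallest number of reads behind it. The median of this number was 2 in Dnmt3L KO at the paired insertions with 10 calls, and 3 at the single ones. Where at least 4 calls at 1 CpG site were also asked for in both libraries, 14 of 39 single (35.9%) and 3 of 51 paired insertions (5.88%) were lower in *Pld6* KO. In Dnmt3L KO, 4 of 4 single and 4 of 6 paired insertions were then lower, and 4 of the 6 paired and 0 of the 4 single ones kept a level of at least 0.5. Of the matches alone, without the rim, 33 had 10 calls in both WT and *Pld6* KO and 9 of them were lower, against 2.87% of windows of that length. These were 8 of 23 single and 1 of 10 paired copies. In Dnmt3L KO 6 of 7 were lower, against 52.3%.

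Of the insertions with at least 15 calls in Dnmt3L KO and 10 in the other libraries, the 3 with the highest Dnmt3L KO level were paired. These insertions, and the single copies that were low in both mutants, were chosen after their values were seen. An insertion in an intron of *Slc17a5*, which encodes the lysosomal sialic acid transporter, at chr9:78562918-78567963, had a level of 0.960 (WT, 25 calls), 0.861 (*Pld6* KO, 36 calls) and 0.952 (Dnmt3L KO, 21 calls). An insertion 36450 bp from *Ywhab* at chr2:163958254-163962800 had 1 (16 calls), 0.933 (45 calls) and 0.917 (24 calls). One in an intron of *Trak2*, whose product links mitochondria to motor proteins, at chr1:58930791-58935175, had 0.947 (19 calls), 0.727 (11 calls) and 0.938 (16 calls). As these 3 were chosen for a high Dnmt3L KO level, a drop of 0.3 from WT was not possible at them. Paired insertions were not all alike, since the one in an intron of *Cfap97d2* at chr8:13719345-13724308 had 1 (WT, 17 calls), 0.951 (*Pld6* KO, 41 calls) and 0 (Dnmt3L KO, 10 calls). Among the 5 of 182 paired insertions counted as lower in *Pld6* KO was one in an intron of *Cachd1* at chr4:100933160-100937940. It had 0.923 (WT, 13 calls), 0.475 (*Pld6* KO, 40 calls) and 0.588 (Dnmt3L KO, 17 calls), and was also chosen after its values were seen.

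At the 5 printed insertions the levels of the classes overlapped. The insertion in *Zfp277* had a level of 0.977 (WT, 44 calls), 0.871 (*Pld6* KO, 70 calls) and 0.562 (Dnmt3L KO, 16 calls), and that in *Ralyl* 0.810 (42 calls), 0.708 (65 calls) and 0.25 (20 calls). The single copy near *Ces2a* had 0.917 (36 calls), 0.734 (109 calls) and 0.214 (14 calls). The single copy in *Asic2*, an ion channel gene, had 0.967 (60 calls), 0.758 (66 calls) and 0.4 (20 calls), and that in *Sec11a*, a signal peptidase gene, 0.885 (52 calls), 0.679 (78 calls) and 0.1 (10 calls). The paired *Ralyl* insertion was thus below the single *Asic2* copy in both mutants, and in *Pld6* KO also below the copy near *Ces2a*. It also had the lowest WT level of the 5. The drops from WT did not overlap. In *Pld6* KO they were 0.106 and 0.102 at the paired insertions and 0.183, 0.209 and 0.205 at the single ones, in the order given. In Dnmt3L KO they were 0.415 and 0.560 at the paired and 0.702, 0.567 and 0.785 at the single ones.

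Some single copies were low in both mutants. By the limit of 3 calls, a level of 0 allows one of up to 0.3 at 10 calls, 0.188 at 16 calls and 0.0769 at 39 calls. The copy 2159 bp from *Pkd2*, a gene for a calcium-permeable channel of cilia, at chr5:104457044-104457291, had a level of 0.875 (WT, 56 calls), 0.239 (*Pld6* KO, 67 calls) and 0 (Dnmt3L KO, 16 calls). One 58597 bp from *Rfx3* at chr19:27702885-27703124 had 0.943 (35 calls), 0 (39 calls) and 0 (12 calls). A pair of single copies in introns of *Thsd4* went apart in *Pld6* KO only. That at chr9:60317876-60318146 had 0.909 (WT, 22 calls), 0.267 (*Pld6* KO, 45 calls) and 0 (Dnmt3L KO, 11 calls), and that at chr9:60459359-60459630 had 0.941 (17 calls), 0.795 (39 calls) and 0 (14 calls).

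Over the match alone, 5 copies had 10 calls in each library. The copy at chr5:60848790-60849060, 959756 bp from the nearest protein-coding gene, had 1 (WT, 15 calls), 0.5 (*Pld6* KO, 20 calls) and 0 (Dnmt3L KO, 10 calls), and that at chr9:51464772-51465037 had 1 (17 calls), 0.636 (11 calls) and 0 (14 calls). The copy at chr1:69831553-69831818 overlaps an exon of *Spag16*, a gene of the sperm axoneme, on the same strand. Its level was 1 both in WT (11 calls) and *Pld6* KO (14 calls) but 0 for Dnmt3L KO (11 calls). Within 0.5 kb beside this copy, however, the level was 0.909 (WT, 22 calls), 0.333 (*Pld6* KO, 21 calls) and 0.0435 (Dnmt3L KO, 23 calls). The copy at chr1:13960753-13961015 had 0.731 (26 calls), 0.719 (32 calls) and 0.364 (11 calls). The only paired copy among the 5, on chromosome 18, had 0.833 (12 calls), 0.846 (13 calls) and 0.4 (10 calls). The intervals of the difference between WT and *Pld6* KO lay above 0 for the first and the second of these copies and took in 0 for the other 3.

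Of the copies with the most calls, the paired one at chr14:105977884-105978146, 81065 bp from *Spry2*, had 0.7 (10 calls) in WT and 0.653 (72 calls) in *Pld6* KO, with no call in Dnmt3L KO. A paired one at chr1:154905767-154906021 had 0.8 (5 calls) and 0.625 (64 calls), again with no call in Dnmt3L KO. The single copy at chr12:19781307-19781570 had 0.765 (17 calls), 0.878 (49 calls) and 1 (8 calls) and was thus lower in neither mutant. The copy near *Ces2a*, also of this set, had 0.833 (12 calls), 0.741 (54 calls) and 0.75 (4 calls) over the match alone, so that its low Dnmt3L KO level over match and rim comes from the rim. The last of the set, at chr1:13960753-13961015, was given above over the match.

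**Figure D4:**
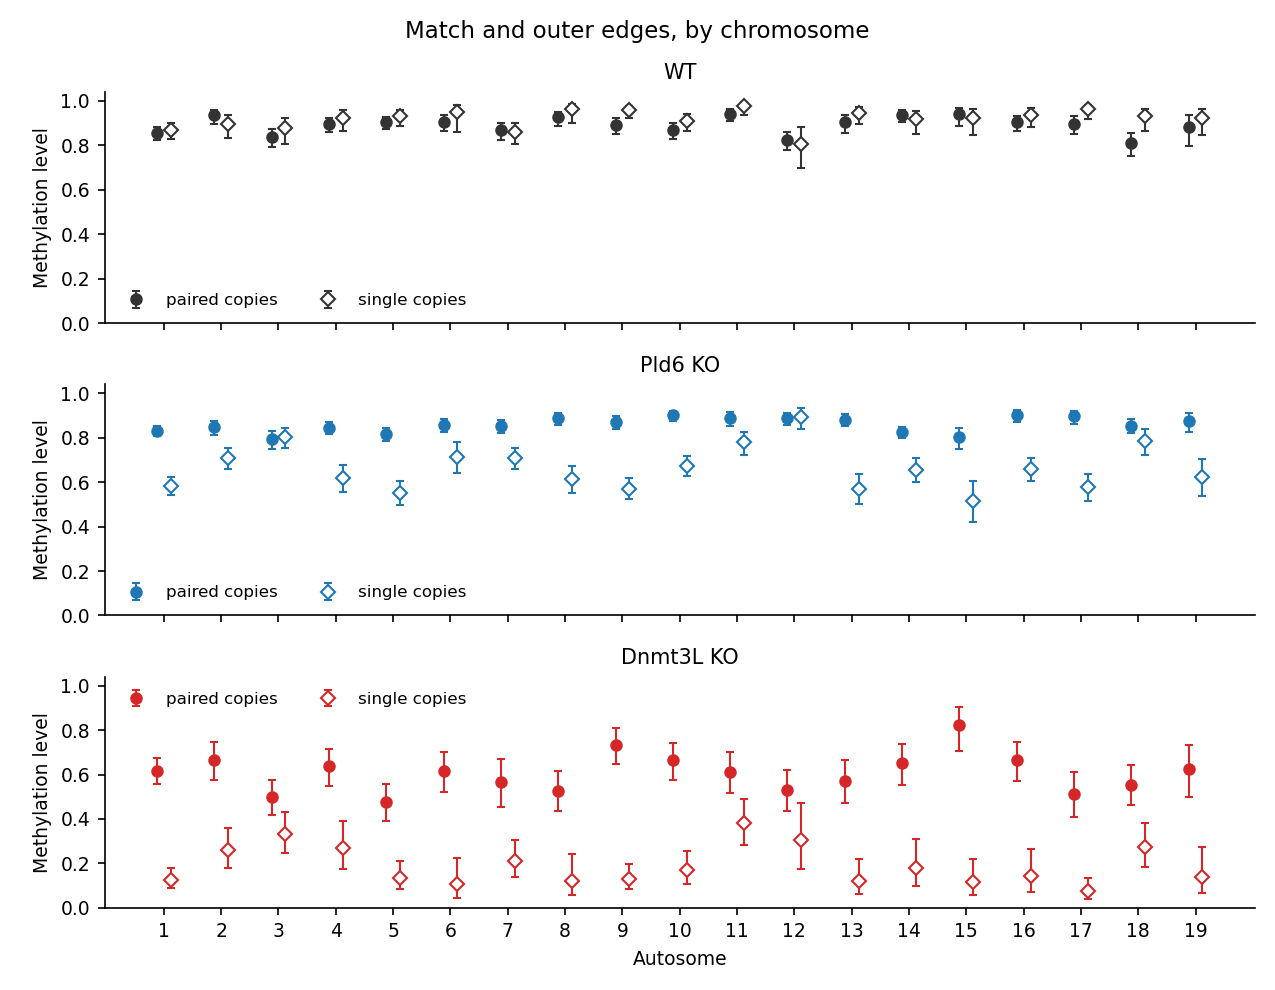
CpG methylation level over the match and the outer rim (y axis, 0 to 1) on each of the 19 autosomes (x axis), for paired (filled) and single (open) copies, with a panel for each library. Bars are 95% Wilson intervals. In Dnmt3L KO the paired copies lie above the single copies on all 19 autosomes, and in WT on 5.

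The order of the classes held across the genome. On all 19 autosomes the paired copies had a higher level than the single copies in Dnmt3L KO, with intervals that did not overlap on 17 of them. In *Pld6* KO this was so on 17 autosomes, on 16 without overlap, and in WT on 5, on none without overlap. The level of paired copies per autosome ran from 0.474 to 0.825 in Dnmt3L KO with a median of 0.615, and that of single copies from 0.074 to 0.381 with a median of 0.143. In *Pld6* KO the medians were 0.857 and 0.656, and in WT 0.897 and 0.924. The autosomes share a library, so they are not replicates.

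The classes differ in identity to the amplicon and in coverage, and the part of either in the result was not tested. The levels are therefore also given by range of identity. Among copies of 90 to 95% identity the level over match and rim was 0.858 (WT), 0.827 (*Pld6* KO) and 0.507 (Dnmt3L KO) at the 354 paired copies. At the 162 single ones it was 0.913 (WT), 0.647 (*Pld6* KO) and 0.165 (Dnmt3L KO). Among copies over 98% identical, it was 0.909, 0.876 and 0.674 at the 306 paired copies and 0.965, 0.654 and 0.231 at the 20 single ones. The copies with 10 or more CpG sites gave the same picture, with 0.616 at paired and 0.190 at single copies in Dnmt3L KO.

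**Figure D5:**
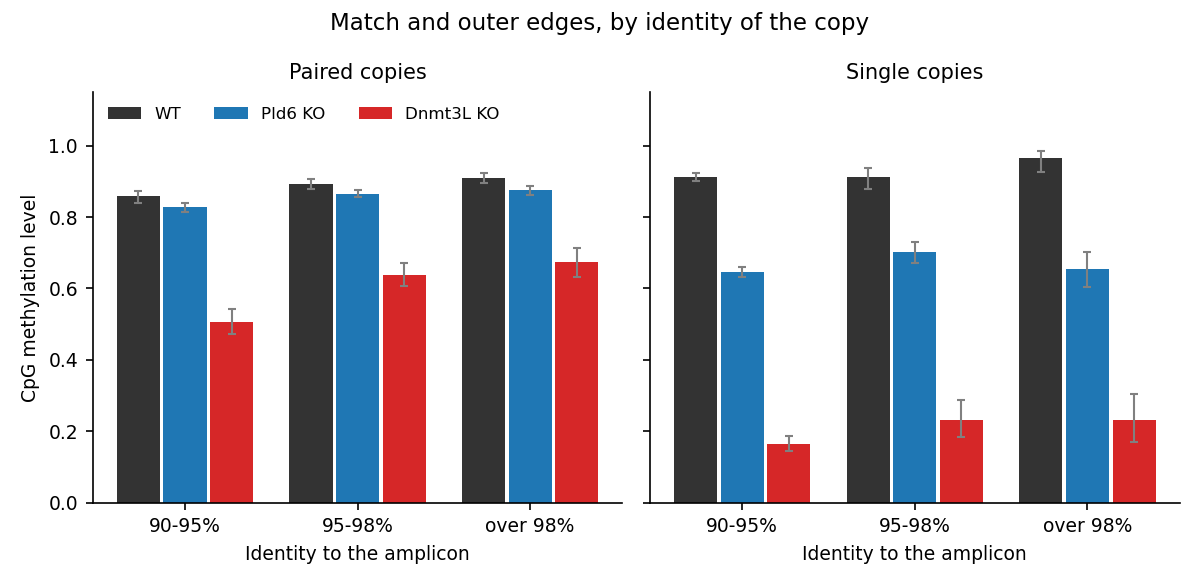
CpG methylation level over the match and the outer rim (y axis, starting at 0) by identity of the copy to the amplicon (x axis), for paired and single copies. Bars are pooled levels of the 3 libraries with 95% Wilson intervals. In Dnmt3L KO the paired copies are at 0.507, 0.639 and 0.674 and the single copies at 0.165, 0.232 and 0.231 from the lowest to the highest identity.

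The pairs were also divided by their spacing. Pairs up to 6 kb apart, shorter than a full provirus, had a Dnmt3L KO level of 0.589 over match and rim, and pairs over 6 kb apart one of 0.612. In *Pld6* KO the former were lower than WT by 0.0543 (0.0380 to 0.0700), and for the latter the interval of the difference (-0.0020 to 0.0275) took in 0.

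Protein-coding genes held 245 of the copies, 72 on the strand of the gene and 173 on the opposite strand, and 14 overlapped an exon. Paired copies in genes had a level of 0.914 (WT), 0.875 (*Pld6* KO) and 0.682 (Dnmt3L KO), and those outside genes 0.881, 0.851 and 0.582. Single copies in genes had 0.939, 0.701 and 0.240, and those outside 0.912, 0.646 and 0.171. Copies in genes were thus at a higher level in each library, which was not tested, and the order of the classes was the same in and outside genes.

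From RNA of other cells of these mutants, a table of the study lists 8 genes beside a copy of IAPEZ, the IAP group to which this LTR belongs, while its text counts fewer genes for IAP. A copy lay in or within 20 kb of 3 of these 8 genes, and of none of the 10 genes known for IAP copies whose methylation varies between mice. The insertion 11852 bp from *Slit2*, a gene for an axon guidance protein, was paired, at chr5:47966202-47971286, and had a level of 0.850 (WT, 20 calls), 0.967 (*Pld6* KO, 60 calls) and 0.156 (Dnmt3L KO, 32 calls). That 11613 bp from *E330017A01Rik*, also paired, had 0.889 (9 calls), 0.667 (6 calls) and 1 (2 calls), which is too few calls for a comparison. The third copy, single and in an intron, had no call in WT.

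The classes were also compared in the other LTR families. At 0 to 0.5 kb on the outer sides, the level at paired and at single copies in Dnmt3L KO was 0.419 and 0.181 for IAPLTR1_MM, 0.154 and 0.105 for RLTRETN_Mm, the LTR of ETn elements, and 0.341 and 0.325 for MT2-MERVL, the LTR of MERVL. In *Pld6* KO it was 0.830 and 0.650 for IAPLTR1_MM, 0.504 and 0.474 for RLTRETN_Mm and 0.857 and 0.829 for MT2-MERVL. In WT it was 0.843 and 0.876, 0.765 and 0.778, and 0.877 and 0.854. Inside the copies, the level at paired and at single RLTRETN_Mm copies was 0.228 and 0.0776 in Dnmt3L KO. It was 0.455 and 0.361 in *Pld6* KO, which is the order found inside the IAP LTR copies. In WT, however, it was 0.838 and 0.771, so the paired RLTRETN_Mm copies were already higher there. Inside the IAP LTR copies the WT order was the reverse, with 0.784 and 0.906. The *Pld6* KO level was below the WT level by 0.383 at paired and by 0.409 at single RLTRETN_Mm copies. Inside MT2-MERVL copies the paired copies were not above the single copies in either mutant. There the paired and the single copies had 0.288 and 0.304 in Dnmt3L KO, and 0.796 and 0.8002 in *Pld6* KO. RLTR10C-MMERVK10C had almost no pairs to compare, and the levels at 0 to 0.5 kb from its single copies were 0.815 (WT), 0.737 (*Pld6* KO) and 0.310 (Dnmt3L KO). The differences between families were not tested.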

How the data were processed

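Post-bisulfite adaptor tagging libraries of spermatogonia on postnatal day 7 were sequenced by the authors as single-end 100-nt reads. The authors removed the first 6 and the last 15 nt and stretches of quality under 30, and mapped the reads with Bismark (version not given in the sources used here) to mm10, keeping unique matches. Removal of duplicate reads is not stated. Per CpG site, the files deposited give counts of methylated and of unmethylated calls, beside the level as a fraction that the authors computed from them. The level was recomputed here from the deposited counts. Depth was 43757722 (WT), 64076569 (*Pld6* KO) and 19289688 (Dnmt3L KO) calls.

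The amplicon of the study's primer table, with the converted bases put back to C, was searched with blastn 2.17.0 in GRCm38. Genes were taken from GENCODE vM21. Sites inside a match were pooled, and a site outside was given to its nearest copy. Levels were pooled in Python 3.11.15 (numpy 2.4.6, pandas 2.3.3, scipy 1.17.1), with Wilson and Newcombe intervals, and the steps were checked on simulated data. No test between genotypes was made, because each genotype had 1 library. Autosomal windows of the same length with at least 10 calls in both libraries gave the background shares. Members and lists were chosen with earlier results of these data known. Copies were named by most calls, by the largest and smallest differences and Dnmt3L KO levels among those with 10 calls in each library, and by nearness to the listed genes. The alternatives varied the match, the coverage, the weighting and the assignment of sites.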

Additional observations from a re-analysis of the deposited data

How the results depend on the processing

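Each difference kept its direction under every alternative. The difference inside the copies between WT and *Pld6* KO, 0.175, was 0.122 at 95% identity, 0.149 at 99% extent and 0.222 over sites called in all libraries. That between WT and Dnmt3L KO, 0.602, was 0.493 at 95% identity, 0.683 with at least 3 calls per site and 0.760 as a mean over the 5 copies with 10 calls in each library. At 0 to 0.5 kb the difference between WT and *Pld6* KO, 0.0736, was 0.0449 at 95% identity, 0.0575 at 99% extent, 0.103 as a mean over copies and 0.235 at copies with no other match within 20 kb. That between WT and Dnmt3L KO, 0.497, was 0.444 at 95% identity, 0.574 with at least 3 calls per site, 0.477 as a mean over sites and 0.712 at copies with no other match within 20 kb. By class, an alternative chosen after seeing the data, the *Pld6* KO difference was 0.0812 at paired and 0.261 at single copies inside and 0.0221 and 0.226 at 0 to 0.5 kb. The Dnmt3L KO difference was 0.404 and 0.753 inside and 0.420 and 0.695 at 0 to 0.5 kb, and 0.558 from 50 to 500 bp on the outer sides of all copies. The count of copies lower in *Pld6* KO, 9 of 33, was 26 of 97 with at least 5 calls, 1 of 3 with at least 20 and 0 of 9 at 95% identity. That in Dnmt3L KO, 6 of 7, was 32 of 38 with at least 5 calls and 2 of 2 at 95% identity, and with at least 20 calls 0 copies were left to count.

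No paired analysis was possible because each genotype had 1 library. Values inside the copies rest on few calls, with 5.56% of the sites covered in WT against 69.3% of all autosomal CpG sites, and an insertion with 10 calls can rest on 1 read. Levels of insertions with few calls were given with their number for that reason.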

Other observations

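The sex chromosomes were left out above. On X, the level over the match and rim was 0.801 (WT), 0.736 (*Pld6* KO) and 0.538 (Dnmt3L KO) at 87 paired copies, and 0.870 (WT), 0.580 (*Pld6* KO) and 0.220 (Dnmt3L KO) at 23 single copies, which is the order found on the autosomes. On Y, the 10 paired copies had 0.769 (52 calls), 0.588 (85 calls) and 0.364 (11 calls), and the 2 single copies 0 (6 calls), 0.333 (3 calls) and 0 (3 calls), which is too few calls for a comparison. These values rest on fewer calls than those of the autosomes.

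Inside the RLTRETN_Mm copies the level was 0.792 (WT), 0.398 (*Pld6* KO) and 0.132 (Dnmt3L KO), so that both mutants were lower there than inside the IAP LTR copies.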
